A study of Homo sapiens with 2 samples.

Results

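The short arm of chromosome 6 between 24 and 34 Mb carries the largest human histone gene cluster, a dense collection of tRNA genes and the major histocompatibility complex (MHC). The peaks described here are the GATA2 peaks of LNCaP prostate cancer cells whose midpoint lies in that interval of hg19, 192 of the 36797 peaks in the deposited list and of the 2423 peaks on chromosome 6. LNCaP is an established androgen-responsive human cell line, and GATA2 is a zinc-finger transcription factor that binds the motif GATA. The series holds 1 group of 2 replicate chromatin immunoprecipitation samples, taken with a GATA2 antibody. All cells had spent 3 days in RPMI with 5% charcoal-treated serum, a medium low in steroid hormones. No input, untreated or other control sample was among the samples used here. One list of peaks stands for the series and holds no value per replicate, so no result below has a replicate error or a test, and the read depth behind each peak is unknown.

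Replication-dependent histone genes lie clustered on 6p and are transcribed mainly in S phase. Transfer RNA genes are short genes read by RNA polymerase III, and many of them are interspersed with the 6p histone genes. The MHC follows on the centromeric side. Its class I genes encode molecules that present peptides from inside the cell, its class II genes (the HLA-DR, HLA-DQ and HLA-DP families) encode molecules that present peptides taken up from outside, and the class III stretch between them holds complement genes and TNF. In the order of genes in the RefSeq table for GRCh38.p14, the stretch from the linker histone gene H1-1 to TRIM27 holds 53 protein-coding histone genes and 135 of the 465 tRNA genes that table lists. Gene positions of that build cannot be joined to hg19 peaks, so no peak was assigned to a gene. The sequences under the peaks were not analysed here, and none is printed.

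Sub-blocks were set by position. The histone cluster was taken as 26000 to 26300 and 27750 to 27900 kb, the tRNA-rich stretches as 26300 to 27750 and 27900 to 29000 kb, MHC class I as 29600 to 31400 kb, class III as 31400 to 32200 kb and class II as 32200 to 33400 kb. The 3 stretches left over were kept as remainders. At the outer limits, the last peak outside lay at 23993409 to 23993707 (score 219) and the first inside at 24196490 to 24196690 (score 168). On the other side the last inside lay at 33726746 to 33727080 (score 498) and the first outside at 34220103 to 34220411 (score 367). The score of a peak was given by the authors' peak caller. It runs from 80.01 to 3100 over the list and has no stated unit. It was used only to compare peaks within the list, by rank, by medians and by ratios to medians.

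GATA2 peaks crowded into the histone and tRNA-rich 3 Mb and were sparse over the MHC. The tRNA-rich stretches held 109 peaks, a density of 42.7 per Mb (exact Poisson 95% interval 35.1 to 51.6). The histone cluster held 18 peaks, a density of 40.0 per Mb (95% interval 23.7 to 63.2). The 3 MHC classes together held 29 peaks, a density of 7.63 per Mb (95% interval 5.11 to 11.0). The rest of chromosome 6 lay between them, with 2231 peaks over 157.8 Mb of usable length, or 14.1 per Mb (95% interval 13.6 to 14.7). These intervals cover counting only. Peaks clump, so the intervals understate how far stretches of a chromosome differ from each other.

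**Figure D1:**
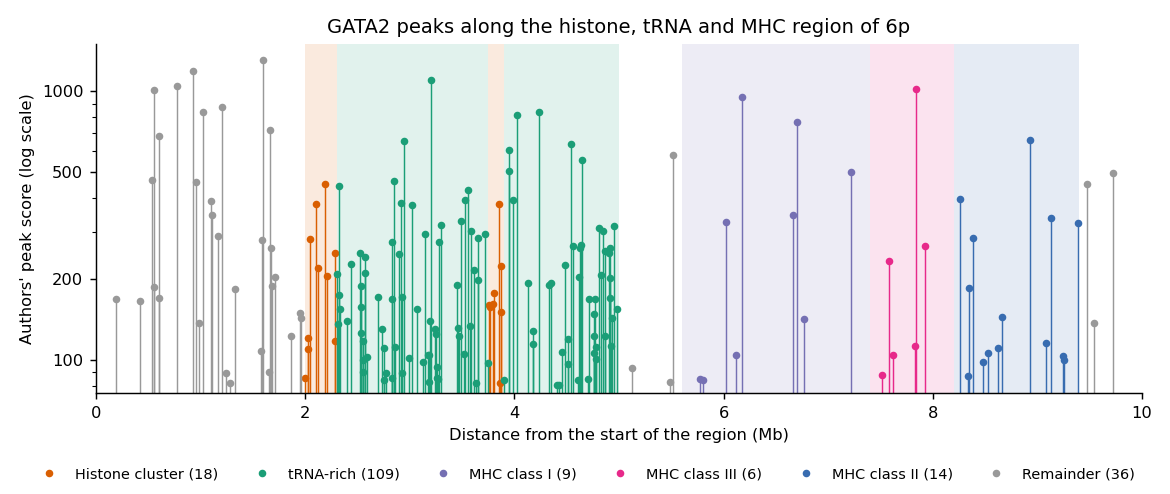
Each point is 1 of the 192 GATA2 peaks, placed by the distance of its centre from the start of the region in Mb and by the authors' score on a log axis, with shading for the sub-blocks. The 127 peaks of the histone and tRNA-rich stretches stand close together and mostly low, and the 29 peaks of the MHC stand far apart.

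Relative to the rest of chromosome 6, the tRNA-rich stretches had 3.02 times the peak density (95% interval of the ratio 2.47 to 3.67) and the histone cluster 2.83 times (95% interval 1.67 to 4.48). The MHC as a whole had 0.54 times that density (95% interval 0.36 to 0.78). As one interval the 10 Mb hid this contrast, with 19.2 peaks per Mb and a ratio of 1.36 (95% interval 1.17 to 1.57). The high peak number at 26 to 29 Mb was known when the region was chosen, so its excess is a description.

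Both parts of each dense sub-block showed the high density. The first tRNA-rich stretch held 64 peaks, or 44.1 per Mb, and the second held 45 peaks, or 40.9 per Mb (95% intervals 34.0 to 56.4 and 29.8 to 54.7, which overlap). The first part of the histone cluster held 10 peaks, or 33.3 per Mb, and the short second part held 8 peaks, or 53.3 per Mb (95% intervals 16.0 to 61.3 and 23.03 to 105). The second histone part lies between the tRNA-rich stretches, and its wide interval takes in the densities of both. With the block limits moved 50 kb inward, which removes a large part of these short stretches, the ratio of the histone cluster to the rest was 1.41 (95% interval 0.46 to 3.31, which takes in 1) in place of 2.83. In the better-scoring 50% of the list it was 2.16, with an interval of 0.87 to 4.47 that also takes in 1.

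Within the MHC the point estimates stepped up from class I to class II, and their intervals overlapped. Class I held 9 peaks over 1.8 Mb, or 5.00 per Mb (95% interval 2.29 to 9.49). Class III held 6 peaks over 0.8 Mb, or 7.5 per Mb (95% interval 2.75 to 16.3). Class II held 14 peaks over 1.2 Mb, or 11.7 per Mb (95% interval 6.38 to 19.6). Only the interval for class I lay wholly below the density of the rest of chromosome 6, with a ratio of 0.35 (95% interval 0.16 to 0.67). In the best-scoring 10% of the list, where class I has 2 peaks, that ratio was 0.86 (95% interval 0.10 to 3.13). The ratios for class III and class II were 0.53 (95% interval 0.19 to 1.16) and 0.83 (95% interval 0.45 to 1.39).

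The remainders differed too. The first, from 24 to 26 Mb, held 30 peaks at a density of 15.0 per Mb (95% interval 10.1 to 21.4), close to the rest of the chromosome. The stretch from 29000 to 29600 kb and that from 33400 to 34000 kb had 3 peaks each, which is 5.00 per Mb (95% interval 1.03 to 14.6).

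How often such counts occur elsewhere in the list was read from non-overlapping windows of the same length, leaving out long peak-free stretches. None of the 51 other 3 Mb windows of chromosome 6 and none of the 814 on the other autosomes held as many as the 127 peaks of 26 to 29 Mb, and the highest counts were 68 and 95. None of 1713 windows on the other autosomes matched the 64 peaks of the first tRNA-rich stretch, where the highest count was 57. For the second, with 45 peaks, 2 of 2272 windows did. The histone parts were less extreme. For the first, with 10 peaks, 24 of 524 windows on chromosome 6 (4.58%) and 325 of 8407 on the other autosomes (3.87%) held as many. For the second, with 8 peaks, 12 of 1051 (1.14%) and 170 of 16853 (1.01%) did. The whole 10 Mb was less extreme than the tRNA-rich stretches, with 3 of 226 autosomal windows at or above 192 peaks. At the low end, 2 of 40 other windows of 3.8 Mb on chromosome 6 (5%) and 61 of 636 on the other autosomes (9.59%) held no more than the 29 peaks of the MHC. For the 9 peaks of class I the counts were 1 of 86 windows on chromosome 6 (1.16%) and 93 of 1375 on the other autosomes (6.76%).

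The dense stretch ended abruptly at 29 Mb and began less sharply. In bins of 1 Mb the counts from 24 to 34 Mb were 11, 19, 43, 43, 41, 5, 6, 7, 9 and 8. The rest of chromosome 6 averaged 14.1 peaks per bin (SD 6.08 across 157 bins), with 30 in its fullest bin. The 3 bins from 26 to 29 Mb thus all exceeded every other bin of the chromosome, and the 5 bins after them averaged 7 (SD 1.58). Across the limit at 29 Mb, the 500 kb before it held 30 peaks and the 500 kb after it held 2. Across the limit at 26 Mb the change was smaller, from 11 to 17 peaks. The last peak before 29 Mb ended at 28977554, and the next began 149 kb further on.

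At a scale of 100 kb the dense stretch had no empty bin. Its 30 bins held 1 to 10 peaks each, with a mean of 4.23 (SD 2.27 across bins), and 13 bins held 5 or more. Elsewhere on chromosome 6, 31.8% of 1577 such bins were empty and 3.23% held 5 or more. The variance of the counts was 1.22 times their mean from 26 to 29 Mb and 1.43 times in the rest of the chromosome, so the variance was above the mean in both. Over the 38 bins of the MHC, 17 were empty and none held more than 3 peaks. There the variance was below the mean, at 0.88 times it. The fullest bin, 26.5 to 26.6 Mb, held 10 peaks, and their median score was 141. The bins at 28.7 to 28.8 and 28.9 to 29 Mb held 8 each, with median scores of 117 and 186. The bin at 27.2 to 27.3 Mb held 7, and that at 26.3 to 26.4 Mb was the first of 3 bins with 6. All 5 named bins were tRNA-rich, and their median scores were below the list's median of 212.

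The excess of peaks was larger at low scores than at high ones. When the whole list was cut into 4 equal parts by score, the tRNA-rich stretches held 15.7 peaks per Mb of the lowest-scoring part, 12.2 of the next, 10.6 of the third and 4.31 of the highest. The rest of chromosome 6 held 3.35, 3.59, 3.74 and 3.45 per Mb in the same order. The ratios to the rest therefore ran 4.68, 3.38, 2.83 and 1.25, falling from the lowest part to the highest. For the highest part the 95% interval of the tRNA-rich density, 2.15 to 7.72 per Mb, takes in the rest of the chromosome. In the histone cluster the ratios were 3.31, 3.71, 3.56 and 0.64, the last from 1 peak. In the MHC they were 1.02, 0.22, 0.49 and 0.46, from 13, 3, 7 and 6 peaks. Among the lowest-scoring peaks the MHC as a whole was thus level with the rest, at 3.42 per Mb (95% interval 1.82 to 5.85). In the other parts it was below the rest. By class the ratios in the lowest-scoring part were 0.50, 1.12 and 1.74 for classes I, III and II, from 3, 3 and 7 peaks. For class I the ratios in the next parts were 0.15, 0.30 and 0.48, so its point estimates were low throughout.

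**Figure D2:**
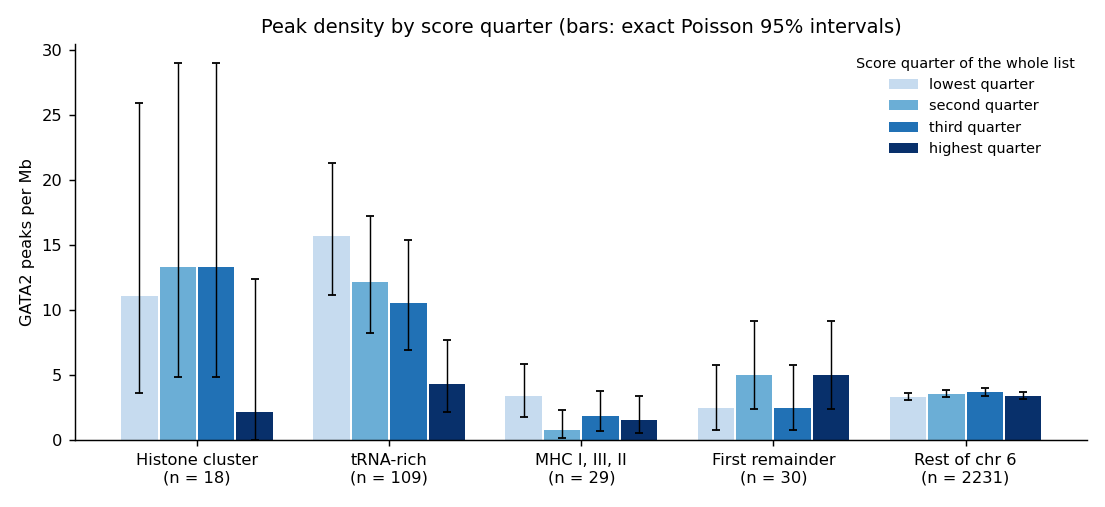
Bars give GATA2 peaks per Mb in each of 4 equal score classes of the whole list, with exact Poisson 95% intervals, for the sub-blocks, the first remainder and the rest of chromosome 6. In the tRNA-rich stretches the bars fall from 15.7 per Mb in the lowest class to 4.31 in the highest, and in the rest of the chromosome they are level at 3.35 to 3.74.

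High scores were few in the dense stretch. Of its 127 peaks, 45 (35.4%, exact Clopper-Pearson 95% interval 27.2% to 44.4%) were in the better-scoring 50% of the list, which by construction holds 50% of all peaks and held 50.9% of those in the rest of chromosome 6. Of the 127, 3 (2.36%, 95% interval 0.49% to 6.75%) were in the best-scoring 10%, against 10% of the list and 9.19% of the rest of the chromosome. Scores under 100, close to the lowest score in the list, were found for 21 of the 127 (16.5%, 95% interval 10.5% to 24.2%), against 11.9% of the list and 11.3% of the rest. None of the 18 histone-cluster peaks was in the best-scoring 10%, which allows a share of up to 18.5% (upper Clopper-Pearson limit). Among peaks of the best-scoring 10% the tRNA-rich stretches were no denser than the rest of the chromosome, with a density ratio of 0.91 (95% interval 0.19 to 2.68).

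Median scores were also lower in the dense stretch. The median was 168 in the tRNA-rich stretches (exact order-statistic 95% interval 133 to 197), below the 216 of the rest of chromosome 6 (95% interval 206 to 228). It was 169 in the histone cluster (95% interval 121 to 249, which takes in 216). The first histone part, with 10 peaks, had a median of 212 (95% interval 110 to 381). The second, with 8 peaks, had 161 (95% interval 81.6 to 381). The first tRNA-rich stretch had a median of 154 (95% interval 125 to 197) and the second 189 (95% interval 128 to 250), which overlap. MHC class I had the highest median of the 5 kinds of sub-block, 325, but its 9 peaks ran from 83.6 to 953 and the interval from 84.4 to 769. Class III, with 6 peaks, had a median of 173 and ran from 87.5 to 1021. Class II had the lowest median, 130, with 14 peaks from 86.9 to 656 (95% interval 100 to 336). The MHC medians cannot be told from that of the rest of the chromosome at these numbers.

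**Figure D3:**
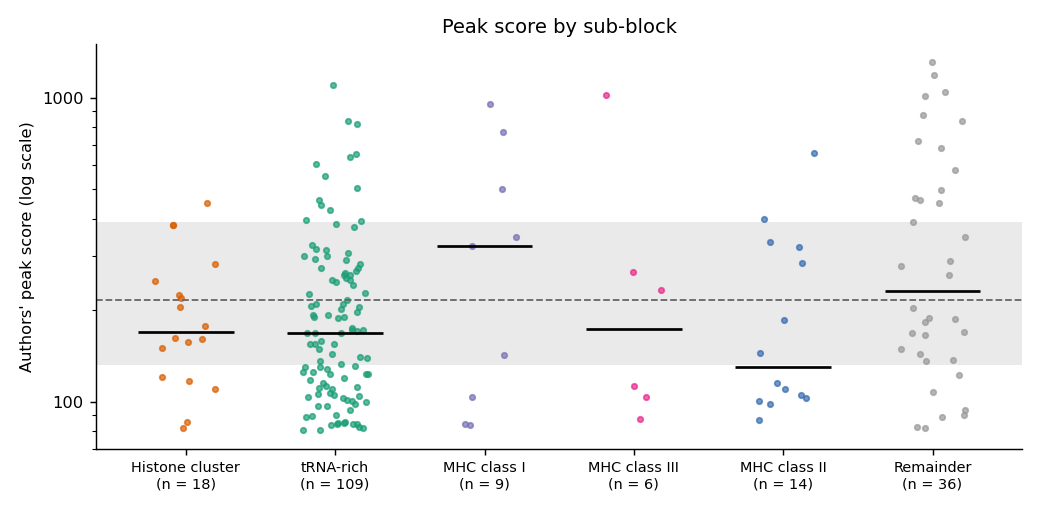
Points are single GATA2 peaks by sub-block on a log score axis, black bars are medians, and the dashed line and grey band are the median and middle 50% of peaks on the rest of chromosome 6. The tRNA-rich median of 168 and the histone median of 169 lie below the line at 216, and the few MHC peaks spread over the whole range.

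Peaks of the tRNA-rich stretches were also narrower. The median width was 256 bp in the tRNA-rich stretches (95% interval 232 to 284 bp) and 298 bp in the rest of chromosome 6 (95% interval 292 to 304 bp). The histone cluster, at 289.5 bp (95% interval 233 to 342 bp), did not stand apart. Class I peaks had a median of 313 bp, class III peaks 244 bp and class II peaks 188.5 bp, with 95% intervals of 144 to 362, 187 to 393 and 129 to 361 bp. Width followed score as it did elsewhere (Spearman's rho 0.85 across the 192 peaks and 0.84 across the rest of chromosome 6, both across peaks, which are not independent replicates). Among peaks of similar width the gap in score was smaller. With each score divided by the list's median for its width class, the tRNA-rich median was 0.94 (95% interval 0.88 to 0.99) and that of the rest of the chromosome 0.99 (95% interval 0.97 to 1.01). In all, 1.16% of the tRNA-rich sequence lay under a peak, against 0.44% of the rest of the chromosome and 0.19% of the MHC.

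Spacing followed density. Another peak had its centre no more than 10 kb away for 63 of the 109 tRNA-rich peaks (57.8%, 95% interval 48.0% to 67.2%) and for 12 of the 18 histone-cluster peaks (66.7%, 95% interval 41.0% to 86.7%), against 33.2% of the list and 36.2% of the rest of chromosome 6. Among the 29 MHC peaks none had such a neighbour, which allows a share of up to 11.9%. The nearest peak was at a median distance of 7.88 kb in the tRNA-rich stretches (95% interval 5.05 to 12.2 kb) and 16.6 kb in the rest of the chromosome (95% interval 15.5 to 18.1 kb). In the MHC it was 46.2 kb (95% interval 34.9 to 56.6 kb), with 56.6 kb in class I, 38.1 kb in class III and 43.2 kb in class II. All 8 peaks of the second histone part had a neighbour within 10 kb, and 4 of the 10 in the first part did. The median distance in that first part was 18.4 kb (95% interval 1.07 to 19.3 kb). That interval takes in the 16.6 kb of the rest of the chromosome, so these 10 peaks do not show whether the distance differs. The first remainder, with 11 of 30 peaks (36.7%), was at the level of the rest of the chromosome.

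**Figure D4:**
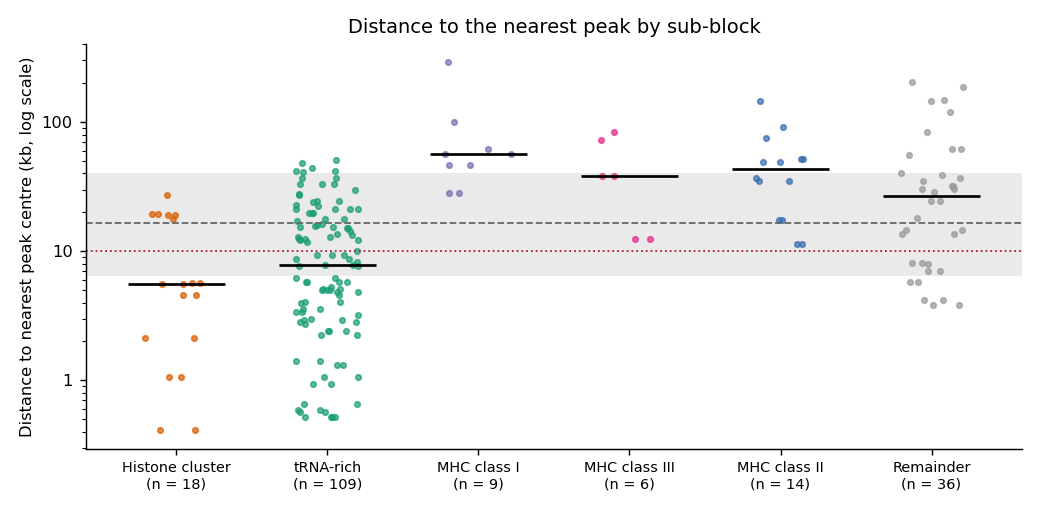
Points are single GATA2 peaks by sub-block, placed by the distance in kb to the nearest peak centre on a log axis, with black bars for medians, a dotted line at 10 kb, and the median and middle 50% of the rest of chromosome 6 as dashed line and grey band. All MHC peaks lie above the dotted line, and 57.8% of the tRNA-rich peaks lie on or below it.

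In the dense stretch the closely spaced peaks had lower scores than the others, with intervals that just met. From 26 to 29 Mb the median score was 148 for the 75 peaks with a neighbour within 10 kb (95% interval 123 to 170) and 211 for the other 52 (95% interval 168 to 275). In the rest of chromosome 6 the medians were 210 (95% interval 197 to 231) for 808 peaks with such a neighbour and 218 (95% interval 206 to 237) for 1423 without. The difference between these contrasts was not tested. Next, only the better-scoring 50% of the list was kept. The share of tRNA-rich peaks with a neighbour within 10 kb was then 0.93 times that of the rest of the chromosome. The 95% interval of this ratio, 0.35 to 1.84, takes in both 1 and the 1.596 found with all peaks.

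The closest pairs of the dense stretch had centres under 1 kb apart. From 26 to 29 Mb 7 pairs of centres were within 1 kb, which involves 14 of the 127 peaks (11.0%, 95% interval 6.16% to 17.8%), against 6.04% of the list and 6.36% of the rest of chromosome 6. The interval takes in the share of the rest. The first tRNA-rich stretch had 4 of 64 such peaks (6.25%), the second 8 of 45 (17.8%) and the second histone part 2 of 8. The 7 pairs were separated by 113 to 743 bp of sequence outside a peak, and their scores ran from 90.0 to 255 with a median of 127. The closest in the region lay in the second histone part, at 27870193 to 27870438 (score 150) and 27870552 to 27870898 (score 224), with centres 409.5 bp apart. The closest tRNA-rich pair, at 28908719 to 28909052 (score 250) and 28909250 to 28909558 (score 202), had centres 518.5 bp apart. Whether such pairs are a single enriched stretch called more than once was not tested. The closest MHC pairs were far wider apart, with centres 28.1 kb apart in class I, 12.4 kb in class III and 11.3 kb in class II. The closest in the remainders were 3.84, 30.2 and 62.3 kb apart.

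A run was counted where 5 or more peaks followed each other with steps of 12500 bp or less between centres. There were 4 runs in the region, and all 4 were tRNA-rich. They held 21 of the 192 peaks (10.9%). The rest of chromosome 6 had 7 runs with 36 peaks (1.61% of its peaks). The first run held 5 peaks at 26305625 to 26330696, with a median score of 174, and included the widest tRNA-rich peak (26327684 to 26328542, 859 bp, score 444). The second held 5 peaks at 26553662 to 26572202, with a median score of 117. A run of 6 peaks at 28757457 to 28785134 also had a median of 117, and its highest score was 168. The most compact held 5 peaks in 12.47 kb at 28908719 to 28921188, with a median of 202. No peak of these runs was in the best-scoring 10% of the list, and 4 of the 21 were in its better-scoring 50%. With peaks under 500 bp apart merged, the number of runs was 2.

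The longest peak-free stretches between peaks of the region lay in the MHC. In class I, 483 kb (30176073 to 30659056) and 453 kb (30767224 to 31220111) were free of peaks. Of the 34 stretches between neighbouring peaks from 29 to 34 Mb, 4 were 300 kb or longer (11.8%), against 70 of 2228 in the rest of chromosome 6 (3.14%). A stretch of 329 kb (31927021 to 32256232) crossed from class III into class II, and one of 289 kb (31220473 to 31509808) crossed from class I into class III. Between neighbouring peaks of the same sub-block, the longest stretch of class III was 210 kb (31620681 to 31830596) and that of class II 273 kb (32660078 to 32932615). Counted in the same way, the longest in the remainders were 248 kb (25334285 to 25582571), 363 kb (29126874 to 29490070) and 187 kb (33539340 to 33726745). After the last peak of the region, 493 kb were free of peaks across the limit at 34 Mb. The dense blocks had shorter ones by the same count, 146 kb in the tRNA-rich stretches (27301134 to 27447375) and 80.6 kb in the histone cluster (26205008 to 26285599). With the depth unknown, absence of a peak does not show absence of binding. The list carries 24 chromosome names, none of them an alternative haplotype of the MHC.

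The region's highest-scoring peaks lay mostly outside the dense stretch. Of the 10 highest-scoring, 6 were in the first remainder, 2 were tRNA-rich, 1 was in MHC class III and 1 in class I. The highest, at 25597419 to 25597953 (535 bp), scored 1305 and ranked 425 in the list. The second, at 24925894 to 24927000, scored 1185 and at 1107 bp was the widest of the region. Others of the first remainder lay at 24779530 to 24780050 (score 1042), 24558480 to 24559219 (1014), 25202697 to 25203057 (874) and 25026389 to 25026822 (836). In all, 7 of the 30 peaks of the first remainder (23.3%, 95% interval 9.93% to 42.3%) were in the best-scoring 10% of the list. The interval takes in the 10% of the whole list and starts just above the 9.19% of the rest of chromosome 6. The peak density of this remainder was close to that of the rest of the chromosome.

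Among tRNA-rich peaks the highest, at 27204131 to 27204865 (735 bp), scored 1103. The next lay at 28231174 to 28231676 (score 834) and 28025289 to 28025646 (score 819), and their nearest neighbouring centres were 50.6 and 37.1 kb away. In the histone cluster the highest scores were 451 at 26185306 to 26185638, 381 at 27856671 to 27857007 and 381 at 26103968 to 26104403. Its widest peak, 441 bp at 26204567 to 26205007, scored 204. The top of the histone cluster thus stayed below the best-scoring 10% of the list, which starts at a score of 687.

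MHC peaks were few, and their share in the best-scoring 10% of the list was close to that of all peaks. Of the 29, 13 were in the lowest-scoring 25% of the list, 7 of them in class II. That part of the list held 23.7% of the peaks in the rest of chromosome 6. In the best-scoring 10% were 3 of the 29. In class I the highest lay at 30175609 to 30176072 (464 bp, score 953), 30705271 to 30705632 (score 769) and 31220112 to 31220472 (score 500). The centre nearest to the last was 289.6 kb away, the largest such distance among the 192. In class III, 31842878 to 31843270 (393 bp) scored 1021, and the next highest were 266 at 31926711 to 31927020 and 233 at 31582311 to 31582599. Class II was led by 32932616 to 32933129 (514 bp, score 656), 32256233 to 32256593 (score 398) and 33126813 to 33127081 (score 336). These leading peaks were also the widest of their class in each of the 3 classes. In the small remainders the highest scores were 577 at 29520215 to 29520579 (365 bp) and 498 at 33726746 to 33727080 (335 bp).

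Other dense bins of the list had higher median scores than the histone and tRNA-rich stretch in most cases. The 3 bins of 26 to 29 Mb had medians of 168, 160 and 170. Of 25 other autosomal 1 Mb bins with at least 31 peaks, at least 1 Mb from a long peak-free stretch, 22 had a median above 170, and the middle of their medians was 220 (range 132 to 377). The 9 other bins of chromosome 6 with at least 25 peaks had medians of 171 to 259, the lowest of them almost level with the 170 of 28 to 29 Mb.

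**Figure D5:**
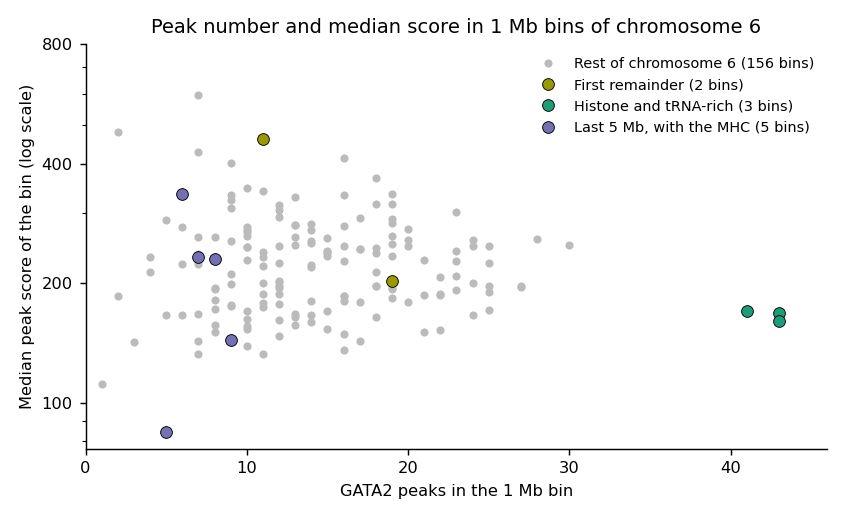
Each point is a 1 Mb bin of chromosome 6 with at least 1 GATA2 peak, placed by its number of peaks and by the median score on a log axis. The 3 bins of 26 to 29 Mb, with 41 to 43 peaks, stand to the right of all others at medians of 160 to 170, and the 5 bins that follow, with 5 to 9 peaks, stand at the left.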

How the data were processed

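The submitters' processing notes name Bowtie and the build hg19, and the peak names in the deposited list carry the name MACS. Not given in the sources used here are versions, a control library, duplicate handling and pooling of replicates. The deposited list gives a chromosome, start, end and score per peak, the score being the authors' own with no stated unit.

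Members were peaks with a midpoint from 24 to 34 Mb. Starts were made 1-based. Usable length ran from the first to the last peak less peak-free stretches over 2.5 Mb. Nearest neighbours were taken over the whole chromosome. Densities have exact Poisson intervals, density ratios exact conditional binomial ones, shares Clopper-Pearson ones and medians order-statistic ones, all at 95% and for counting only. Peaks are not replicates, and no p-value was computed. Peaks named were the 3 highest-scoring and the widest of each sub-block, the 10 highest of the region, closest pairs, runs, longest peak-free stretches and the 5 fullest 100 kb bins. Ties between bins were settled by position. The members, limits and rules were chosen with earlier results of these data known. The calculation was tested on simulated data. Python 3.11.15, numpy 2.4.6, pandas 2.3.3, scipy 1.17.1 and matplotlib 3.10.9 were used.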

Additional observations from a re-analysis of the deposited data

How the results depend on the processing

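Ratios are to the rest of chromosome 6. In the better-scoring 50% of the list the density ratio was 1.06 for the region and 2.07 for the tRNA-rich stretches, and in the best-scoring 10% it was 1.00 for the region, 0.91 for the tRNA-rich stretches, 0 for the histone cluster, 0.86 for MHC class I (0.35 with all peaks) and 0 for class II (0.83 with all peaks). The ratio of shares with a close neighbour fell in the better-scoring 50% to 0.62 for the region, 0.93 for the tRNA-rich stretches and 0 for the histone cluster, and in the best-scoring 10% to 0 for the region and the tRNA-rich stretches. The 95% intervals of these ratios all take in 1, with upper limits of 1.16, 1.84, 2.41, 5.63 and 16.1 in that order. These subsets hold fewer peaks by construction, and the best-scoring 10% has 13 in the region and 3 in the tRNA-rich stretches. Those 3 are too few for an interval of a median. In the best-scoring 10% the ratio of median width was 1.01 for the region and 1.10 for the tRNA-rich stretches, and that of median score 1.04 and 0.91. The region's median score ratio was 0.94 in the better-scoring 50%. Within deciles of width that ratio was 0.97 for the region and 0.95 for the tRNA-rich stretches. Moving block limits 50 kb inward gave the histone cluster a density ratio of 1.41. A neighbour limit of 5 kb gave the tRNA-rich stretches a ratio of 1.86, and one of 20 kb gave the MHC 0.37. The 4 runs became 0 in both score subsets, 2 with peaks under 500 bp apart merged and 9 with steps of up to 25 kb. The causes were not tested. In all 208 values were recomputed, and 182 of them fell inside the 95% interval of the original (for runs, within a factor of 1.5). Alternatives that need an hg19 genome or annotation were not run. No paired analysis was possible because the only list has no column for either replicate, and so none could be left out. Depth is unknown.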
